A study of Mus musculus with 6 samples.

Results

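The immediate early transcription factors *Fos*, *Fosb*, *Jun*, *Junb*, *Atf3*, *Egr1*, *Egr2*, *Klf4*, *Nr4a1*, and *Ier2* were followed in interscapular brown adipose tissue (iBAT), the fat depot between the shoulder blades that burns fuel for heat. The 10 genes were chosen by symbol, through the RefSeq accession of each array probe, from 20630 gene symbols with a usable probe, and their signals in *ob/ob* and control iBAT were known when they were chosen. Their differences between the groups are therefore given as a description, without a test. All 10 genes passed the detection filter, and each was read by 1 probe. RNA of 3 control arrays and 3 *ob/ob* arrays was measured. All mice were male, 16 weeks old, and on a C57BL/6 background. The controls are labeled only as control, with no further genotype. The *ob/ob* mice carry 2 mutated copies of the leptin gene *Lep* and become obese from lack of the hormone in every tissue, so that the model is not specific to brown fat. The labels do not say whether an array holds RNA of 1 mouse or of a pool, so the spread between arrays may be partly technical, and p-values measure that spread alone. The *Lep* signal, in log2 units, was 5.74, 4.57, and 5.30 on the control arrays 1, 2, and 3, against 6.68, 5.83, and 9.33 on those of *ob/ob* mice, which does not check the labels, since the probe does not read the mutation.

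Immediate early genes are switched on within minutes of a signal, without new protein synthesis, because the factors that bind their promoters are already in the cell. Growth factors and stretch act through serum response factor and its partners at the CArG box, and signals that raise cAMP, among them noradrenaline at the β-adrenergic receptors of brown adipocytes, act through CREB at the cAMP response element. The messages are short-lived, and the proteins they encode turn on the next wave of genes. FOS and JUN proteins pair as the AP-1 factor, EGR and KLF proteins bind GC-rich DNA through zinc fingers, and NR4A proteins are nuclear receptors that act without a known hormone.

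The bases next to the transcription start are shown for 5 of the genes, to set the binding sites beside the signals that follow. *Fos* and *Egr2* were brightest on control 1, control 2, and *ob/ob* 3, *Fosb* and *Junb* were dimmest on those same arrays, and *Nr4a1* was the gene whose groups did not overlap. For *Egr2*, 1 of 5 windows is shown. Each line ends at the base before the RefSeq start in assembly GRCm38.p6 and runs 5′ to 3′ on the strand of the gene. Capitals mark the core of the cAMP response element (TGACG), the CArG box, the EGR site (GCGNGGGCG), and the TATA box (TATAAA), each searched on either strand.
Fos, chr12:85473740-85473889, plus strand: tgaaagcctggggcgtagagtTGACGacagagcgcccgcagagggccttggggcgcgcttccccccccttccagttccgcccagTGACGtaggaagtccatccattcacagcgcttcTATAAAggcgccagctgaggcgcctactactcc
Egr2, chr10:67537719-67537868, plus strand: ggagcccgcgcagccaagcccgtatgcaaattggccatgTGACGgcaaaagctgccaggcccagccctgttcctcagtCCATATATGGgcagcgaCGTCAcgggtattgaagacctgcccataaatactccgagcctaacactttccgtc
Nr4a1, chr15:101266696-101266845, plus strand: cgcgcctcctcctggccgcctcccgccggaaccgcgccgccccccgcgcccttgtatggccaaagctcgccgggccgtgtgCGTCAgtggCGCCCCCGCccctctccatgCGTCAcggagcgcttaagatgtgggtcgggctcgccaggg
Fosb, chr7:19310046-19310195, minus strand: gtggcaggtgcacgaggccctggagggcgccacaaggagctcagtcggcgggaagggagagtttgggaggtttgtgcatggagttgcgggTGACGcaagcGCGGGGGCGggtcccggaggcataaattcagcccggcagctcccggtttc
Junb, chr8:84978749-84978898, minus strand: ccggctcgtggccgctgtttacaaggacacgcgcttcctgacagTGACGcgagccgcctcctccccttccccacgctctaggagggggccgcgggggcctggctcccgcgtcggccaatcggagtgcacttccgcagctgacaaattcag

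Promoters of 8 of the 10 genes were searched over 250 bases before the start, *Jun*, *Atf3*, and *Klf4* with those shown, and *Egr1* and *Ier2* were not analyzed here. The 8 genes have 12 promoter windows in RefSeq, of which 5 belong to *Egr2* and overlap in part. The core TGACG stood in 7 of the 8 genes and in 9 of the 12 windows, compared with 17.8% of all 32851 windows searched. Its positions in *Nr4a1* began 233, 213, 69, and 40 bases before the start. A CArG box was found in *Egr2* and in no other of these genes, and 1.47% of all windows held it. The EGR site lay in *Fosb*, *Nr4a1*, and *Klf4*, as in 4.70% of all windows. The TATA box letters, in 12.4% of all windows, were found in *Fos*. Neither the full element TGACGTCA nor the AP-1 site TGANTCA was in any of the 12 windows, and 1.55% and 6.75% of all windows held them. *Junb* and *Fosb* carried the same core as *Fos* and *Egr2*, so the presence of these letters did not separate genes whose signals ran opposite ways. A match is a match of letters, and more distant elements lie outside the window.

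The arrays did not fall by group. Over the 35448 probes tested, Spearman correlations (across probes, which are not replicates) placed control 3 nearer to *ob/ob* 1 (0.915) and *ob/ob* 2 (0.944) than to the other controls (0.642 and 0.730). They placed *ob/ob* 3 nearer to control 1 (0.858) than to the other *ob/ob* arrays (0.573 and 0.488). For 61.5% of the 19011 genes tested, control 1, control 2, and *ob/ob* 3 lay all above or all below the other 3 arrays. The median spike-in signal was 4.01 log2 units on *ob/ob* 3 and 6.19 to 7.10 on the others. Whether the samples of replicate 3 were exchanged between the groups was not tested, and an exchange would change what each difference below measures. As labeled, the groups did not overlap for *Lep* (higher), *Nr4a1*, and *Nr4a2* (both lower). Of all genes tested, 3.78% lay entirely higher and 4.22% entirely lower as labeled. The values of the named genes were known beforehand, so these genes do not check the labels. Because control 3 and *ob/ob* 3 resemble the other group, values with and without them are given. Limma called 0 probes at an adjusted p under 0.05, 1245 at an unadjusted p under 0.05, and the methods' t-test also called 0 at the adjusted threshold.

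All signals below are log2 intensities after quantile normalization, in the order replicate 1, 2, and 3, and differences are *ob/ob* minus control with the standard error from limma (n = 3 in each group). The mean of each of the 10 genes was lower in *ob/ob* iBAT, with differences from −2.08 (*Egr1*) to −0.01 (*Junb*), and *Junb* turned to 0.03 higher with the normexp background correction. Without *ob/ob* 3 alone, *Fosb*, *Junb*, and *Ier2* were 0.61, 0.82, and 0.09 higher. The median difference of the 10 was −1.48 (−0.82 with normexp), where the median over all genes tested was −0.086 and 57.2% of all genes were lower. In 9 of the 10 genes the groups overlapped. *Nr4a1* was the exception, with every *ob/ob* array below every control array, which held for 4.22% of all genes tested, while 3.78% lay entirely above. The values of this contrast were known when the genes were chosen, so nothing is read from these counts.

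**Figure D1:**
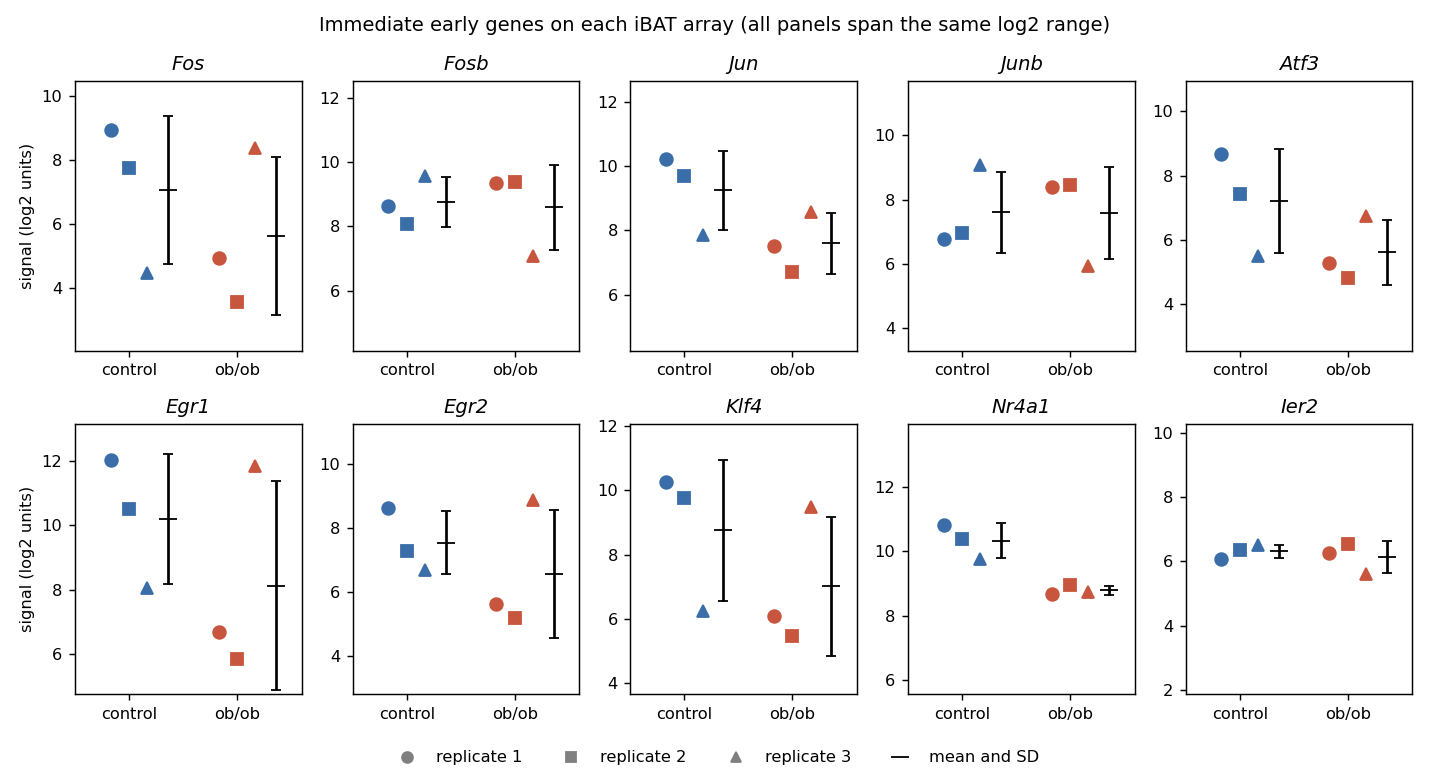
Log2 signal (vertical axis, quantile normalized) of each immediate early gene on the 3 control (blue) and 3 *ob/ob* (red) arrays, with symbols for the replicate number and black bars for the mean and SD of a group. Each panel spans the same number of log2 units. *Nr4a1* is the gene without overlap, and *Fos*, *Egr1*, and *Klf4* show the low control 3 and the high *ob/ob* 3.

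FOS and JUN family members form the AP-1 dimers, and here they split. *Fos*, the FOS partner that cannot bind DNA without JUN, read 8.93, 7.76, and 4.48 on the control arrays, against 4.94, 3.59, and 8.38 on those of *ob/ob* mice. Control 3 thus sat with *ob/ob* 1 and 2, *ob/ob* 3 sat between control 1 and 2, and on *ob/ob* 2 the probe was not well above background. The difference was −1.42 (standard error 1.58), smaller than the SD of either group (2.31 for the controls, 2.47 for the *ob/ob* mice). Within the controls, *Fos* was 21.9-fold brighter on control 1 than on control 3.

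*Jun*, the partner that binds DNA as a pair with FOS or with itself, read 10.21, 9.68, and 7.87 on the control arrays, against 7.52, 6.69, and 8.57 on those of *ob/ob* mice. The order of the arrays resembled that of *Fos*, although *ob/ob* 3 stayed below control 1 and 2, and the overlap rested on *ob/ob* 3 exceeding control 3. Its difference was −1.66 (standard error 0.77), 3.16-fold lower. *Atf3*, a stress-induced member of the ATF/CREB family that represses or activates with JUN, read 8.68, 7.44, and 5.49 on the control arrays, against 5.26, 4.81, and 6.74 on those of *ob/ob* mice. Again only *ob/ob* 3 reached into the control range, and the difference was −1.60 (standard error 0.92). *Jun* and *Atf3* had the most similar profiles of any pair of these genes, with a root mean square difference of 0.30 log2 units over the 6 arrays once each gene was centered on its own mean.

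*Fosb* and *Junb* ran the other way across the arrays. *Fosb*, a FOS protein whose short splice form accumulates after repeated stimulation, read 8.63, 8.07, and 9.58 on the control arrays, against 9.35, 9.39, and 7.08 on those of *ob/ob* mice. *Junb*, a JUN protein that is a weaker activator and can restrain JUN, read 6.78, 6.95, and 9.06 on the control arrays, against 8.38, 8.46, and 5.92 on those of *ob/ob* mice. For both genes control 3 was highest and *ob/ob* 3 lowest, and control 1 and 2 lay below *ob/ob* 1 and 2. The differences were −0.16 (standard error 0.76) and −0.01 (standard error 0.93), with control SDs of 0.77 and 1.27 and *ob/ob* SDs of 1.32 and 1.44. With a root mean square difference of 0.40, *Fosb* and *Junb* were the third most similar pair, and the least similar pair was *Junb* and *Egr1*, at 3.45.

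Among the zinc finger factors, *Egr1*, the EGR protein that answers to growth factor and stress signals, read 12.05, 10.51, and 8.05 on the control arrays, against 6.68, 5.85, and 11.84 on those of *ob/ob* mice. It had the widest range of the 10 genes, 6.20 log2 units, and *ob/ob* 3 was 63.4-fold brighter than *ob/ob* 2, the dimmest array. The difference between the group means was −2.08 (standard error 1.78), compared with SDs of 2.02 for the controls and 3.25 for the *ob/ob* mice. *Egr2*, which takes part in early adipocyte differentiation and in myelination, read 8.61, 7.29, and 6.70 on the control arrays, against 5.64, 5.20, and 8.86 on those of *ob/ob* mice. Here *ob/ob* 3 was the highest of all 6 arrays, while *ob/ob* 1 and 2 lay below every control, and the difference was −0.97 (standard error 1.06). *Klf4*, a Krüppel-like factor of vascular and epithelial cells that also acts early in adipocyte differentiation, read 10.26, 9.77, and 6.24 on the control arrays, against 6.07, 5.46, and 9.49 on those of *ob/ob* mice. Its arrays fell into a bright and a dim set of 3 with over 3 log2 units between them, a profile close to that of *Fos* (root mean square difference 0.36), and the group difference was −1.75 (standard error 1.45).

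*Nr4a1* encodes an orphan nuclear receptor that noradrenaline and cAMP induce in brown adipocytes and that acts on fuel metabolism genes. It read 10.83, 10.40, and 9.76 on the control arrays, against 8.69, 8.95, and 8.74 on those of *ob/ob* mice. The dimmest control lay above the brightest *ob/ob* array, and the *ob/ob* arrays were close together, with an SD of 0.14 compared with 0.54 in the controls. The difference was −1.54 (standard error 0.38), 2.91-fold lower, and larger than the SD of either group. It stayed between −1.83 and −1.29 under the 15 alternatives, including −1.80 without control 3 and *ob/ob* 3. Some of these alternatives, such as those of the detection filter, cannot change the value. *Ier2*, a small nuclear protein induced by serum and growth factors, was the flattest of the genes, at 6.09, 6.35, and 6.50 on the control arrays, against 6.26, 6.55, and 5.59 on those of *ob/ob* mice. Its groups overlapped, and the difference of −0.18 (standard error 0.38) was below both SDs (0.21 for the controls, 0.49 for the *ob/ob* mice).

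**Figure D2:**
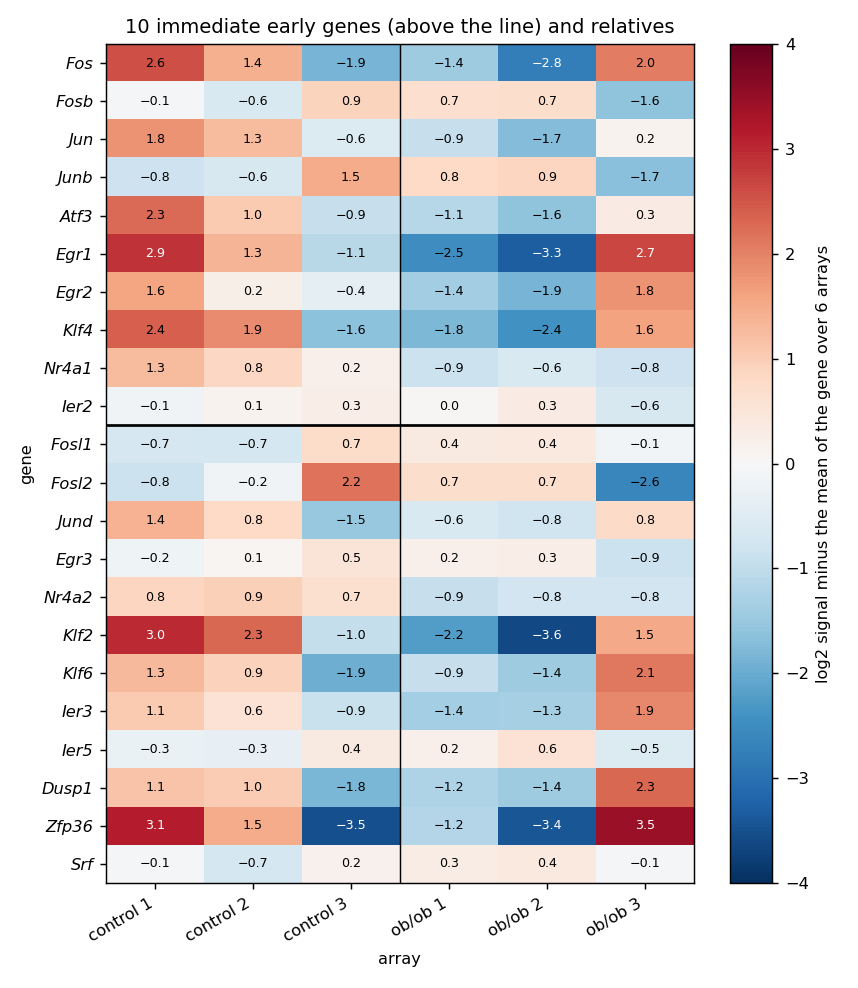
Log2 signal minus the mean of the gene over the 6 arrays (color and printed value, red above and blue below), for the 10 immediate early genes above the line and their relatives below it. Columns are arrays, with controls left of the vertical line. *Nr4a1* and *Nr4a2* change sign between the groups, and most other rows change sign between control 1, control 2, and *ob/ob* 3 and the other 3 arrays.

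The SD within a group, pooled over both groups, exceeded the size of the group difference in 7 of the 10 genes, the others being *Jun*, *Atf3*, and *Nr4a1*. For *Atf3* the SD of the controls alone (1.611) exceeded the size of the difference (−1.596). The pooled SD had a median of 1.35 log2 units over the 10 genes and of 0.69 over all genes tested. *Egr1* (2.70), *Fos* (2.39), and *Klf4* (2.18) had the largest pooled SDs of the 10, above those of 99.2%, 97.9%, and 96.6% of all genes tested. *Ier2* (0.38) and *Nr4a1* (0.39) had the smallest, above those of 20.9% and 22.3%. This ordering is a description of 6 arrays.

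**Figure D3:**
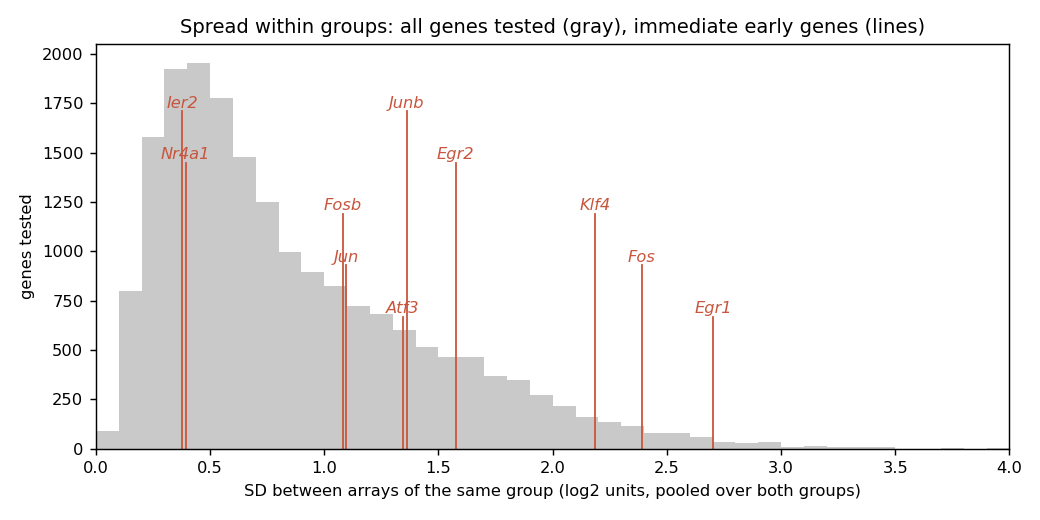
Number of genes tested (gray bars, vertical axis) by the SD between arrays of the same group in log2 units (horizontal axis), with a line for each immediate early gene. *Ier2* and *Nr4a1* lie near the mode, and *Klf4*, *Fos*, and *Egr1* lie in the upper tail at 2.18, 2.39, and 2.70.

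*Fos*, *Jun*, *Egr1*, *Egr2*, *Atf3*, and *Klf4* were brighter on control 1, control 2, and *ob/ob* 3 than on each of the other 3 arrays, and *Fosb* and *Junb* were dimmer on all 3. The same orders were common across the array, in 29.8% and 31.7% of all genes tested. Control 1 was the brightest of the 6 arrays for 6 of the 10 genes, compared with 8.44% of all genes. The array values were known when the genes were chosen, so nothing is read from these counts. When control 3 and *ob/ob* 3 were both left out, the differences of the 10 genes widened and parted. They were −5.01 for *Egr1*, −4.25 for *Klf4*, −4.08 for *Fos*, −3.02 for *Atf3*, −2.85 for *Jun*, and −2.53 for *Egr2*. On the other side they were 1.56 for *Junb*, 1.02 for *Fosb*, and 0.18 for *Ier2*. These 2 arrays were picked because they resemble the other group, so the widening is a property of that choice and not a test of the groups. Leaving out *ob/ob* 2 or control 1 narrowed the differences of *Egr1*, *Klf4*, *Fos*, *Egr2*, *Atf3*, and *Jun*. Without *ob/ob* 2 they were −0.94 for *Egr1*, −0.98 for *Klf4*, −0.40 for *Fos*, and −0.28 for *Egr2*, and without control 1 they were −0.86 for *Atf3* and −1.18 for *Jun*. The other genes widened without *ob/ob* 2, to −1.62 for *Nr4a1*, −0.55 for *Fosb*, −0.45 for *Junb*, and −0.39 for *Ier2*. In the scan that control 1, control 3, and *ob/ob* 1 share, *ob/ob* 1 differed from the mean of the 2 controls by −3.37 for *Egr1*, −1.77 for *Fos*, −1.61 for *Nr4a1*, and 0.46 for *Junb*. Set against control 3 alone, *ob/ob* 1 was 0.45 higher for *Fos*, 1.37 lower for *Egr1*, and 1.08 lower for *Nr4a1*, in log2 units.

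**Figure D4:**
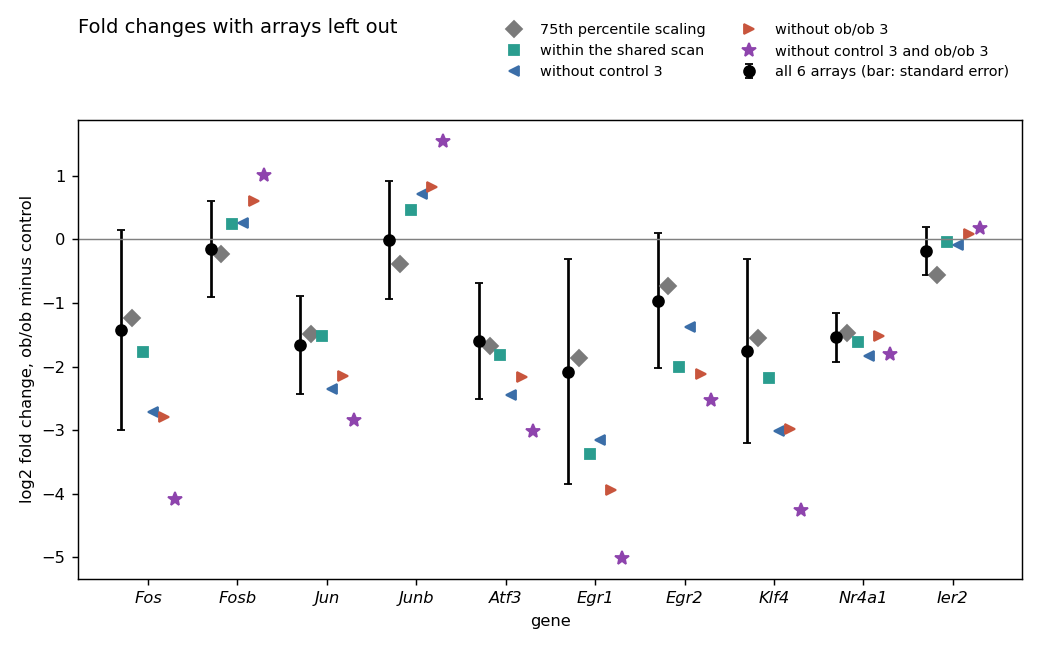
Log2 fold change of each immediate early gene (vertical axis, *ob/ob* minus control) with all 6 arrays (black, bar for the standard error), with 75th percentile scaling, within the shared scan, and without control 3, *ob/ob* 3, or both. *Nr4a1* stays between −1.83 and −1.47 under the settings plotted, whereas *Egr1* runs from −5.01 to −1.86. The settings that leave out another single array are not plotted, and without *ob/ob* 2 *Egr1* was −0.94.

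Markers of many cell types, adipocytes among them, moved along the same arrays. The summed signal of 9 skeletal muscle fiber markers, in log2 units, was 15.3, 15.8, and 12.2 on the control arrays, against 9.95, 10.1, and 16.3 on those of *ob/ob* mice, with control 3 low and *ob/ob* 3 high as for *Egr1*, *Fos*, and *Klf4*. Of these 9 markers, 8 were detected on every array. The sums are of linear signal, so the brightest markers weigh most. In the *ob/ob* mean 8 of the 9 were lower, whereas *Mylpf* was 1.19 higher, with every *ob/ob* array above every control array. *Mylpf* was the marker not detected on every array (on 5), and its signals were low, from 3.68 (control 2) to 5.59 (*ob/ob* 2). Erythrocyte markers, 6 in all, summed to 14.9, 12.8, and 11.9 on the control arrays, against 12.7, 12.2, and 16.2 on those of *ob/ob* mice. Among them *Slc4a1* ran the other way, highest on control 3 (9.49) and lowest on *ob/ob* 3 (6.81). For 6 fibroblast markers the sums were 10.5 to 12.7 on the control arrays, against 9.56 to 14.4 on those of *ob/ob* mice, lowest on *ob/ob* 1 and 2 and highest on *ob/ob* 3. Endothelial markers, 7 in all, summed to 12.8 to 13.9 for the controls, compared with 12.6 to 12.7 for the *ob/ob* mice, but each of the 7 overlapped between the groups. *Pecam1*, at 0.05 higher, was lowest on *ob/ob* 3, whereas *Kdr* (−3.44) and *Cdh5* (−2.69) were lowest on *ob/ob* 2. The 7 macrophage markers tested summed to 9.83 to 10.9 and to 11.06 to 11.11, with 2 of the 7, *C1qa* (0.90) and *Cd14* (0.23), entirely higher on their own. Different markers carried the sum. The brightest was *Csf1r* on *ob/ob* 1 and 2 (10.35 and 10.34) and *Mrc1*, detected on 4 arrays, on *ob/ob* 3 (9.98). In the *ob/ob* mean 6 markers were higher, and *Adgre1* was lower (−0.21) and lowest on *ob/ob* 3. All-adipocyte markers summed to 16.3, 16.1, and 13.5 on the control arrays, against 15.15, 14.6, and 16.4 on those of *ob/ob* mice. Of these 6 markers, 5 were brighter on control 1, control 2, and *ob/ob* 3 than on the other arrays. Neutrophil sums were likewise lowest on control 3 (7.87) and highest on *ob/ob* 3 (12.5). Lymphocyte sums were instead highest on control 3 (11.9) and lowest on *ob/ob* 3 (9.76). These sums and those of smooth muscle markers overlapped between the groups. The 9 brown adipocyte markers were all lower in the *ob/ob* mean. Their sums were 16.5, 15.8, and 12.7 on the control arrays, against 12.3, 12.2, and 13.6 on those of *ob/ob* mice. Of the 9, 6 were brighter on control 1, control 2, and *ob/ob* 3 than on the other arrays. The differences of the 9 brown adipocyte markers ran from −4.51 (*Elovl3*, detected on 3 arrays) to −0.16 (*Dio2*), and *Prdm16* was detected on 4 arrays. The groups overlapped for all but 2, *Elovl3* and *Zic1*, where 4.22% of all genes tested were entirely lower. *Ucp1*, the uncoupling protein that defines the tissue, was detected on every array, at 9.48 to 13.05 on the control arrays, against 8.93 to 10.03 on those of *ob/ob* mice. Not every tested marker was detected on all 6 arrays, among them *Pdgfra* (on 3) and *Tie1* and *Mpo* (on 4 each). The part of these cell types in the signals of the immediate early genes was not tested. In bulk RNA, fewer cells that express a gene and less RNA per cell cannot be told apart.

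The pathway around these genes was read from 6 lists chosen by role. By limma, 0 genes of the 6 lists passed an adjusted p under 0.05, and at an unadjusted p under 0.05, 0 passed as higher and 2 as lower, where 2.04% of all genes passed as higher and 1.69% as lower. Both were lower in *ob/ob* iBAT. *Nr4a2*, the closest relative of *Nr4a1*, read 7.46, 7.55, and 7.26 on the control arrays, against 5.69, 5.85, and 5.84 on those of *ob/ob* mice for the brighter of its 2 probes. The dimmest control exceeded the brightest *ob/ob* array by over 1 log2 unit, and the difference was −1.63 (standard error 0.30, limma, adjusted p = 0.99999). Its second probe also showed no overlap, at −0.97 (standard error 0.30). *Rgs2*, which shortens signaling from G protein–coupled receptors, was the second, at −1.80 (standard error 0.66, limma, adjusted p = 0.99999), with *ob/ob* 3 at 7.27 above control 3 at 6.99. *Rgs2* had 2 probes tested, the brighter was used, and the other is not given here. *Nr4a3*, the third NR4A gene, did not pass the detection filter.

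Besides *Nr4a2*, 2 genes of these lists, named after their values were seen, had groups that did not overlap. Each of the 3 was lower, 1 of 16 other immediate early transcription factors, 1 of 27 effectors, and 1 of 19 feedback inhibitors, with none in the remaining lists and none higher, where 4.22% of all genes were entirely lower and 3.78% entirely higher. *Crem*, whose products include the cAMP-induced repressor ICER, read 7.40, 7.52, and 7.25 on the control arrays, against 6.73, 7.16, and 7.02 on those of *ob/ob* mice. *Homer1*, with an activity-induced short form, read 6.58, 6.64, and 6.68 on the control arrays, against 6.17, 6.57, and 6.14 on those of *ob/ob* mice. The gaps between the groups were under 0.1 log2 units for both, and the differences were −0.42 (standard error 0.31) and −0.34 (standard error 0.31). *Crem* had 3 probes tested and *Homer1* had 5, and the brightest was used.

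Of the other immediate early transcription factors, 12 of 16 were lower, with a median of −0.66, the lowest median of the 6 lists. *Klf2*, a flow-responsive factor of endothelial cells, had the lowest value of that list, at −2.88 (standard error 1.58), from 11.33, 10.63, and 7.38 on the control arrays, against 6.09, 4.74, and 9.86 on those of *ob/ob* mice, so its groups overlapped. *Klf6* (−0.17) and *Ier3* (−0.50) were also brightest on control 1, control 2, and *ob/ob* 3. *Egr3*, the third EGR gene measured, was flat at −0.26 (standard error 0.44). Among 13 AP-1 partners, 6 were lower and 7 higher, with a median of 0.20, and −0.08 with 75th percentile scaling. *Jund*, the JUN protein that is present without a stimulus, read 9.36, 8.76, and 6.44 on the control arrays, against 7.35, 7.16, and 8.72 on those of *ob/ob* mice, a difference of −0.45 (standard error 0.86). *Fosl1* gave 0.42 (standard error 0.49).

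Immediate early effectors, secreted proteins and enzymes induced with the transcription factors, had 15 of 27 genes lower and a median of −0.27. Feedback inhibitors had 10 of 19 lower and a median of −0.22. Of these, *Dusp1*, the phosphatase that turns off MAP kinases, read 9.61, 9.46, and 6.65 on the control arrays, against 7.24, 7.05, and 10.76 on those of *ob/ob* mice, so that its brightest array was *ob/ob* 3. *Zfp36*, which speeds the decay of short-lived messages, was 8.48, 6.83, and 1.81 on the control arrays, against 4.17, 1.92, and 8.80 on those of *ob/ob* mice, and was well above background on only 4 of the 6 arrays. Upstream activators, among them SRF and its partners, CREB and its coactivators, and the MAP kinases, had 21 of 37 lower and a median of −0.064, close to that of all genes. The ATF4 stress arm had 9 of 11 lower and a median of −0.15. Control 3 and *ob/ob* 3, the arrays that resemble the other group, were then left out, and genes were counted at an unadjusted limma p under 0.05. Of all 19011 genes, 5600 were lower and 4873 higher in that fit. It gave 7 lower and 4 higher of 13 AP-1 partners, 13 lower and 1 higher of 16 other immediate early transcription factors, and 18 lower and 0 higher of 27 effectors. It gave 14 lower and 1 higher of 19 feedback inhibitors, 14 lower and 6 higher of 37 upstream activators, and 7 lower and 1 higher of 11 genes of the ATF4 arm. These counts rest on the choice of the arrays left out and are no test of the groups.

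**Figure D5:**
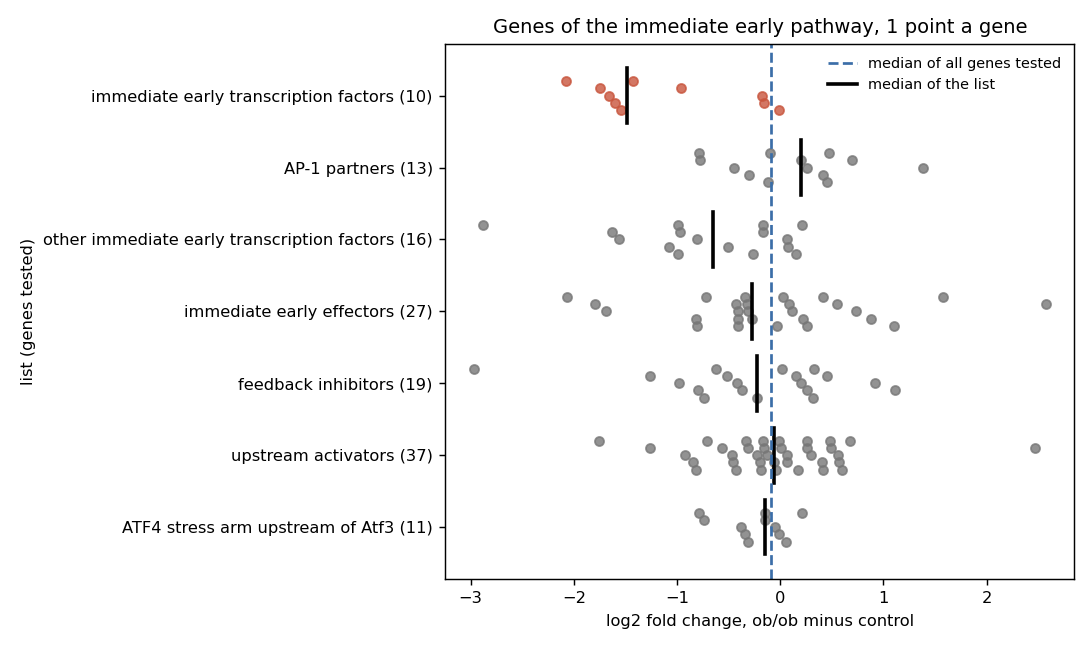
Log2 fold change (horizontal axis, *ob/ob* minus control) of each gene tested in the immediate early transcription factors (red) and 6 related lists (gray), with a black bar for the median of a list and a dashed line for the median of all genes, −0.086. The medians of the 6 related lists lie between −0.66 and 0.20.

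Several relatives have 2 probes, and these can be read against each other. For *Srf*, the factor that binds the CArG box, the brighter probe read 6.93, 6.29, and 7.19 on the control arrays, against 7.30, 7.39, and 6.94 on those of *ob/ob* mice. The dimmer probe read 7.46, 6.47, and 3.54 and 4.34, 3.64, and 7.88, with control 3 lowest and *ob/ob* 3 highest. *Fosl2*, a FOS protein of adipocytes and bone, read 8.04, 8.73, and 11.08 and 9.58, 9.61, and 6.29 on the brighter probe but 9.63, 8.84, and 6.01 and 5.85, 5.87, and 9.97 on the other. The 2 probes of *Fosl2* thus ranked the arrays in nearly opposite orders. *Ier5* behaved in the same manner, with *ob/ob* 3 lowest on the brighter probe, at 6.29, and highest on the other, at 7.28. Of 4726 genes with at least 2 probes tested, 13.0% had 1 probe brighter on control 1, control 2, and *ob/ob* 3 than on all others and another probe dimmer on all 3. The 10 immediate early genes have no second probe, so whether their order across arrays belongs to the gene or to the probe was not tested. The 2 probes of *Nr4a2* gave the same direction and the same separation of the groups.

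Outside these lists, the genes with profiles most like the mean profile of the 10, over 6 arrays and among 15875 other genes detected on every array, were *Eci3*, *Ddo*, *Rp9*, *Gstz1*, *Agpat3*, *Cox4i1*, *Emc9*, and *Mrpl14*. Their root mean square differences from that profile were 0.13 to 0.19 log2 units, where the median over the genes compared was 1.11. The closest, *Eci3*, an enoyl-CoA isomerase, read 8.65, 8.34, and 7.31 on the control arrays, against 6.65, 6.27, and 7.90 on those of *ob/ob* mice. Of the 10 genes themselves, *Jun* lay closest to their mean profile, at 0.37, and *Junb* farthest, at 1.88.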

How the data were processed

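Total RNA of iBAT was labeled with Cy3 and hybridized to 6 single-color Agilent mouse arrays. Per the file headers and the methods, the authors deposited spot intensities from Agilent Feature Extraction (version 11.0.1.1), background corrected within but not normalized between arrays, and a table of log2 values quantile normalized in GeneSpring, each column of which correlated best with the scanner values of its own array (0.987 to 0.998). Spots with an outlier flag were dropped (104 of 39429 probes lost), no spot was saturated, spots of a probe were averaged as log2 values, and arrays were quantile normalized. Probes with at least 50% of spots well above background on at least 3 of 6 arrays were tested (35448 probes, 19011 genes, brightest probe for each gene) with limma (version 3.58.1; R 4.3.3), Benjamini-Hochberg adjusted. With 3 arrays a group, their number limits the precision.

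Genes were named through RefSeq accessions and the annotation of assembly GRCm38.p6 (27234 of 28684 RefSeq probes). The array's own annotation uses another build, so no probe coordinates are given. Promoter sequences are from RefSeq. The arrays were read in 4 scans. The genes, the related lists, and the marker lists were chosen with earlier results of these data known. The 10 genes are all named, as are list genes with an unadjusted p under 0.05 and fixed relatives, *Egr4* and *Nr4a3* among them, which were not detected. Similarity of profiles is the root mean square difference of centered log2 values. Alternatives were 75th percentile scaling, normexp (offset 50, on median spot signals), the authors' values, no detection filter, detection on all 6 arrays, the methods' t-test, replicate and scan blocks, leaving out arrays, and the mean of a gene's probes. Runs of the related lists without control 3 or *ob/ob* 3 were chosen after seeing the data. The code was tested on simulated data.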

Additional observations from a re-analysis of the deposited data

How the results depend on the processing

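The median difference of the 10 genes (−1.48) and the numbers of genes without overlap (0 higher, 1 lower) moved most with control 3 and *ob/ob* 3. Without both, the median was −2.69, 2 genes lay entirely above and 7 entirely below the controls, and limma called 8090 probes higher and 8169 lower at an adjusted p under 0.05, where it called 0 in each direction with all arrays. The arrays left out of that fit were picked for their resemblance to the other group. Separation of the arrays left was common. Control 1 and control 2 lay above control 3, *ob/ob* 1, and *ob/ob* 2 in 32.7% of all genes tested and below them in 35.3%. Nothing is therefore read from the counts of genes entirely above or below. Leaving out 1 array at a time gave medians from −2.13 (without *ob/ob* 3) to −0.67 (without control 1), 0 genes entirely above, and from 1 to 6 entirely below, with 4 without control 3 and 6 without *ob/ob* 3, and 0 probes called in either direction. With the scan as a block, 6 genes lay entirely below, from 3 arrays, *ob/ob* 1 against control 1 and control 3. Fewer arrays separate more easily. The shares of all genes for this count and for those with 1 array left out are not given, so nothing is read from them. The replicate number as a block gave the same median of −1.48 and 0 probes called, and same-numbered arrays deviated from their group means in opposite directions (correlations of −0.85 to −0.66 across probes), so the numbers were not taken to pair the samples. Scaling to the 75th percentile moved the median of all genes from −0.086 to −0.31 and that of the 10 genes to −1.35. The normexp background correction moved the median of the 10 genes to −0.82, with *Fos* at −0.71, *Atf3* at −0.93, and *Egr2* at −0.55. Of the values of single genes under the alternatives, 142 moved by less than the SD between arrays and 7 by more, all 7 without control 3 and *ob/ob* 3. Changing or dropping the detection filter, the replicate block, and the mean of a gene's probes could not change the difference of a gene read by 1 probe. Part of the 142 was thus fixed in advance. *Fos*, *Jun*, *Atf3*, *Egr1*, *Egr2*, *Klf4*, and *Nr4a1* were lower under every alternative run, with values for *Fos* from −4.08 to −0.40, while *Fosb* (−0.55 to 1.02), *Junb* (−0.45 to 1.56), and *Ier2* (−0.56 to 0.18) changed sign. With detection required on all 6 arrays, *Fos* gave no value, since its probe was not well above background on *ob/ob* 2.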
